A study of Mus musculus with 29 samples.

Results

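Brown adipose tissue (BAT) of mice under combined calorie restriction and treadmill training (CREX) was compared with BAT of sedentary control mice, across all genes of the expression table. The comparison took the 7 libraries that the labels place in these groups, 4 CREX and 3 control, of 29 libraries in the series. All mice were wild-type (WT) C57BL/6J males, 8 weeks old at the start, and the intervention lasted 8 weeks. Control mice ate chow freely and did not train. Food of CREX mice was reduced in weekly steps to a final 70% of ad libitum intake, and these mice ran at 12 m/min for 1 h on 5 days per week. BAT was taken after a 6 h fast, with 24 h between the final bout and harvest. Groups with only the diet (CR, 4 libraries) or only the training (EX, 4 libraries) were used to place the combined regimen, and skeletal muscle (SkM) libraries served to measure muscle RNA in BAT. Each library came from 1 mouse, so the p-values measured the spread between these mice.

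Brown fat burns fuel to make heat. Its adipocytes hold many mitochondria and many small lipid droplets, and uncoupling protein 1 (Ucp1) lets protons return across the inner mitochondrial membrane without making ATP. Cold and food act on it through sympathetic nerves and β-adrenergic receptors. The tissue also takes up glucose and makes new fatty acids, stores them as triglyceride, and contains blood vessels, nerves, fibroblasts with their matrix, and immune cells. Fasting and food restriction are known to change sympathetic tone and glucocorticoid levels.

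The sequences below are promoters of genes from 3 groups that turned out to hold many differentially expressed genes (DEGs), namely sterol synthesis, fatty acid synthesis and antigen presentation on MHC class II. Each runs from 250 bases before to 50 bases after the RefSeq start on GRCm38.p6, the assembly of the mm10 build, and is printed 5′ to 3′ on the strand of the gene. Capitals mark CCAAT, or ATTGG where the match lies on the other strand, which is the core of the box bound by nuclear factor Y. In the promoter of Hmgcs1 they also mark TCACNCCAC, a form of the sterol response element.
Lss, chr10:76531355-76531654, plus strand: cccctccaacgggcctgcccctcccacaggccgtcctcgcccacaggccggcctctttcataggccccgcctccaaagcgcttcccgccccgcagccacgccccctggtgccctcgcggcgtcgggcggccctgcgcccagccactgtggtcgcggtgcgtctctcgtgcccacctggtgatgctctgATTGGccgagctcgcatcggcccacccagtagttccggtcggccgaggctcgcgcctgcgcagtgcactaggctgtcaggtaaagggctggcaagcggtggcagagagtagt
Cyp51, chr5:4104648-4104947, minus strand: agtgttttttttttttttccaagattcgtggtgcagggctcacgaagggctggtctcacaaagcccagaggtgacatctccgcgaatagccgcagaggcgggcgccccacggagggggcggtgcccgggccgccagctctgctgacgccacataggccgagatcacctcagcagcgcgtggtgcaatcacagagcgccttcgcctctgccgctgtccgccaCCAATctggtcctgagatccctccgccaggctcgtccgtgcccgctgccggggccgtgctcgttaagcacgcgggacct
Mvd, chr8:122443373-122443672, minus strand: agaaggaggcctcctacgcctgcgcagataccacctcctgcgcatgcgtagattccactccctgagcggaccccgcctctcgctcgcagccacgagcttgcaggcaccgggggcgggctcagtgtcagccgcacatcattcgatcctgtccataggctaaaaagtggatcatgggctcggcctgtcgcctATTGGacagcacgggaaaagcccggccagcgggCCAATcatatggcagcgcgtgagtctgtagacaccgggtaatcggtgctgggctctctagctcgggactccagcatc
Hmgcs1, chr13:119690101-119690400, plus strand: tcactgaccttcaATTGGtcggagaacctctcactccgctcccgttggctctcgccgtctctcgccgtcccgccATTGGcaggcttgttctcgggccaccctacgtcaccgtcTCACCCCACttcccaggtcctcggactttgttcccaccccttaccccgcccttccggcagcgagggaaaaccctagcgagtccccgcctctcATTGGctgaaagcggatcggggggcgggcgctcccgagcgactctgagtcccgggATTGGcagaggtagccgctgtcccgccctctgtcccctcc
Fasn, chr11:120824498-120824797, minus strand: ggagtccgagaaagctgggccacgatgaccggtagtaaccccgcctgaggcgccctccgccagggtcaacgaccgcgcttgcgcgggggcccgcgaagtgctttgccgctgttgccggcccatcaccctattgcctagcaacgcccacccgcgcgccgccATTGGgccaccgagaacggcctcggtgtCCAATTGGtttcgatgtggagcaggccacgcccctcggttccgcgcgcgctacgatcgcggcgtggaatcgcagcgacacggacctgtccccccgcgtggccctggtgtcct
H2-Aa, chr17:34287774-34288073, minus strand: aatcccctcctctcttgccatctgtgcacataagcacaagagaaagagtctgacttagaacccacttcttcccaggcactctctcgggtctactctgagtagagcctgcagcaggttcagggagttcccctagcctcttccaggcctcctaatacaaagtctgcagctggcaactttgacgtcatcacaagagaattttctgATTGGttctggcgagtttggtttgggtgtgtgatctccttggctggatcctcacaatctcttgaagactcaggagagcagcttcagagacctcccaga
Searched on both strands, CCAAT occurred in 11096 of 27025 genes with a promoter in the RefSeq table (41.1%) and in 42.5% of the genes tested. It occurred in 15 of 16 genes of the sterol list with a promoter, in 16 of 22 of the fatty acid synthesis list and in 5 of 6 of the MHC class II list. Among DEGs with a promoter in the table the counts were 7 of 7, 8 of 12 and 5 of 5. TCACNCCAC occurred in 1.44% of all promoters and, within the sterol list, in 1 gene, Hmgcs1. In Fasn, 2 of the 3 matches overlap, because CCAATTGG reads as the motif on both strands. A match describes these letters and was not tested as a binding site.

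The 7 libraries held 22549148 to 24919377 estimated counts, so 3 counts, taken as the floor, corresponded to 0.118 to 0.133 CPM (a count scaled to library size, with TMM factors). Levels below are in CPM, and the floor covers counting error only. The summed level of 10 brown adipocyte markers was 7739 to 8858 CPM in control and 4512 to 5987 CPM in CREX, none of them at 0. Ucp1 was a large part of this sum, at 3841 to 4750 CPM in control and 1373 to 2424 CPM in CREX. It was the only DEG of the 10, so the lower sum adds little to the result for Ucp1. The 8 white adipocyte markers summed to 55.5 to 72.7 CPM in control and 90.8 to 115 CPM in CREX, with 3 of them (Hoxc9, Tcf21 and Wt1) at 0 in all 7 libraries. The brown sum was thus far above the white sum in every library, which matches the tissue label. Skeletal muscle RNA also moved with the groups. The 12 muscle fibre markers summed to 47.6, 108 and 854 CPM in control libraries 3, 2 and 1, and to 1253, 1654, 2539 and 7455 CPM in CREX libraries 1, 2, 4 and 3, with no overlap. Set against SkM control libraries, this was 0.0342% to 0.614% muscle RNA in control and 0.901% to 5.36% in CREX. In these libraries component 1 of a principal component analysis over 500 genes held 82.05% of the variance, and 49 of the 50 genes with the most weight on it were over 10 times higher in SkM than in BAT. In bulk tissue, fewer cells of a type and less RNA per cell cannot be told apart. The source of the muscle RNA was not tested. Some calls that ended with its share subtracted, or with the muscle marker level as a covariate, are named with each group of genes. Others are only counted or not given, so a gene not named there may also have lost its call. Means are given ± SD, with n = 3 control and n = 4 CREX libraries.

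**Figure D1:**
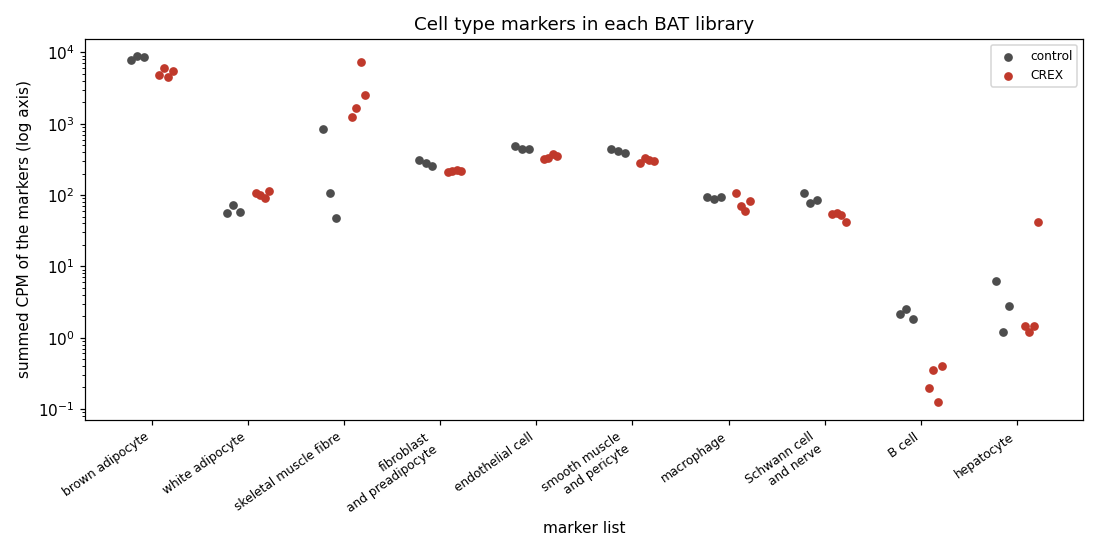
Summed CPM of each cell type's markers (log axis) in each control and CREX BAT library, 1 point per library. The muscle fibre sum lies at 47.6 to 854 in control and 1253 to 7455 in CREX. The brown adipocyte sum, of which Ucp1 is a large part, is lower in all 4 CREX libraries than in the 3 control libraries.

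The first question was how many genes differed between BAT of CREX and control mice. A gene was called a DEG at an adjusted p under 0.05 in edgeR's quasi-likelihood test with Benjamini-Hochberg adjustment and a fold change above 1.5. Log2 fold changes are given ± standard error. Of 13432 genes tested, 1115 passed (8.3%). CREX was higher in 459 (3.42%, upregulated) and lower in 656 (4.88%, downregulated). In 1106 of them the 7 values did not overlap between groups, against 31.3% of all genes tested. The fold change exceeded 2 in 222 upregulated and 302 downregulated DEGs, and 4 in 52 and 43. Over all genes tested the median log2 fold change was 0.01, with quartiles of -0.21 and 0.20. Among upregulated DEGs, 34 were over 10 times higher in SkM than in BAT of control mice, and for 9 the share of muscle RNA would supply more than 50% of the CREX level. None of the downregulated DEGs had such a ratio. After the muscle share was subtracted from each library, 1181 DEGs were called, 1075 of them in common with the 1115. With the muscle marker level as a covariate 430 were called, 345 in common, in a fit where the covariate itself separated the groups. Without control library 2 the count was 679, and without control library 3 it was 732. A call could end with the covariate at a larger or at a smaller fold change. For Bhlhe41 the log2 fold change was -1.18 with the covariate and -0.93 without it, and for Adrb3 it was -0.36 and -0.64.

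**Figure D2:**
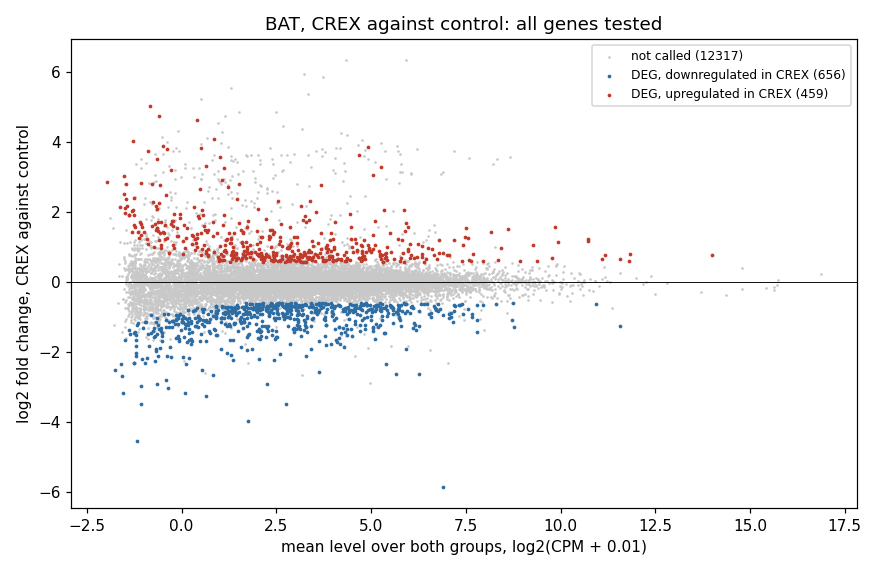
Each point is 1 of 13432 genes, with its mean level over both groups on the x axis (log2 of CPM + 0.01) and its log2 fold change, CREX against control, on the y axis. Red and blue points are the 459 upregulated and 656 downregulated DEGs, which span the whole range of levels.

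The largest increases at 1 CPM or more included genes of muscle. Neu2, a sialidase, Nctc1, a noncoding gene beside Igf2 and H19, and Myf6, a muscle transcription factor, were at or near the floor in control libraries and at most 2.39, 2.56 and 6.03 CPM in CREX. Each was highest in CREX library 3, which also held the most muscle RNA. The adjusted p was 0.0176 for Neu2, 0.0151 for Nctc1 and 0.0301 for Myf6. Mybph, a myosin binding protein, was at 0.524, 0 and 0.0825 CPM in the control libraries and at 4.79, 1.86, 3.47 and 3.55 CPM in the CREX libraries (adjusted p = 0.0128). Bves and Tmem52 had mean CREX levels of 1.32 ± 1.41 CPM and 2.65 ± 2.02 CPM (SD, n = 4), again with the highest value in CREX library 3. Control levels of Neu2, Nctc1 and Bves rested on 3 or fewer counts a library, so no fold change is given. Leaving out the named library, or any 1 of those named, ended the call of Neu2 (control library 1, 2 or 3, adjusted p from 0.0598 to 0.0705), Nctc1 (control library 2 or 3, adjusted p from 0.0588 to 0.0629) and Myf6 (control library 1, 2 or 3, or CREX library 4, adjusted p from 0.0534 to 0.124). The same held for Mybph (control library 3, adjusted p = 0.0571), Bves (control library 1, 2 or 3, or CREX library 1 or 4, adjusted p from 0.0537 to 0.159) and Tmem52 (control library 1, 2 or 3, or CREX library 4, adjusted p from 0.0535 to 0.106). Expressed as a share of the mean CREX level, the muscle RNA would give 71.0% of Nctc1 and 18.8% of Neu2. All 6 calls ended with the muscle covariate (adjusted p = 0.331 for Neu2, 0.195 for Nctc1, 0.227 for Myf6, 0.161 for Mybph, 0.677 for Bves and 0.318 for Tmem52).

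Fkbp5 (chr17:28398753-28486149 on GRCm38.p6, as for the other positions below), a cochaperone of the glucocorticoid receptor and one of its best known targets, had the largest increase outside that group. It was at 6.64, 1.73 and 3.42 CPM in the control libraries and at 50.6, 71.2, 61.7 and 42.9 CPM in the CREX libraries, a 14.5-fold difference (log2 fold change 3.86 ± 0.47, adjusted p = 0.00612). The lowest CREX library was well above the highest control library. The muscle RNA would give 0.566% of the CREX level. Dmrtc1a was at 0, 0.0805 and 0.206 CPM in the control libraries and at 3.07, 0.887, 0.991 and 0.711 CPM in the CREX libraries (adjusted p = 0.0249), and since near-identical copies lie beside it, the split of its reads is uncertain. Leaving out 1 library ended the call of Dmrtc1a (control library 1 or 2, adjusted p from 0.0674 to 0.103). The call of Fkbp5 ended with the muscle covariate (log2 fold change 3.27, adjusted p = 0.0624 for Fkbp5).

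The largest decreases were led by Nr4a1, an immediate early nuclear receptor. It was at 20.5, 466 and 211 CPM in the control libraries and at 3.39, 4.17, 5.90 and 2.80 CPM in the CREX libraries, a 57.0-fold lower level (log2 fold change -5.83 ± 1.13, adjusted p = 0.0285). Control libraries differed widely from each other, and all lay above the CREX libraries. The muscle share alone would supply 109.7% of the CREX level of Nr4a1. Ptgds, a prostaglandin D synthase, was at 7.17, 7.97 and 3.67 CPM in the control libraries and at 0.160, 0.266, 0.330 and 0.8291 CPM in the CREX libraries (log2 fold change -3.95 ± 0.47, adjusted p = 0.00193). Nnat, which encodes neuronatin, a membrane proteolipid of nerve and fat, was at 11.8, 19.6 and 5.90 CPM in the control libraries and at 1.24, 0.887, 1.36 and 0.987 CPM in the CREX libraries (log2 fold change -3.46 ± 0.42, adjusted p = 0.00298). Vdr, the vitamin D receptor, was at 1.35, 1.89 and 2.39 CPM in the control libraries and at 0.1996, 0.355, 0.124 and 0.158 CPM in the CREX libraries (log2 fold change -3.15 ± 0.36, adjusted p = 8.12e-04). These 3 genes kept their calls without any 1 library. Nts (neurotensin), Apold1, an endothelial early response gene, Gem, a small GTPase, and Fosb were also among the 8 largest decreases, with log2 fold changes of -2.90, -2.91, -3.25 and -3.03. CREX levels of Nts and Fosb were close to the floor, so the size of their decrease is imprecise. Leaving out 1 library ended the call of Nr4a1 (control library 2 or 3, or CREX library 1, 2, 3 or 4, adjusted p from 0.0650 to 0.0819) and Gem (control library 2 or 3, or CREX library 1, 2, 3 or 4, adjusted p from 0.0529 to 0.0756). The muscle covariate also ended the calls of both, and those of Fosb and Apold1 (adjusted p = 0.385 for Nr4a1, 0.382 for Gem, 0.171 for Fosb and 0.164 for Apold1).

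Of 23 genes of thermogenesis and brown fat identity tested, 4 passed, all downregulated. The fold change was negative in 18, and the list's median log2 fold change was -0.35 against 0.01 over all genes. Ucp1 (chr8:83290348-83298456) was at 3841, 4749.8 and 4200.1 CPM in the control libraries and at 1373, 2424, 1433 and 1924 CPM in the CREX libraries. The groups did not overlap, and the CREX mean was 2.37-fold lower (log2 fold change -1.25 ± 0.21, adjusted p = 0.0128). Prdm16, a transcriptional coregulator that sets brown fat identity, was at 22.6, 31.1 and 28.5 CPM in the control libraries and at 9.02, 11.7, 10.2 and 13.5 CPM in the CREX libraries (log2 fold change -1.30 ± 0.15, adjusted p = 0.00115). Ebf2, a transcription factor of brown preadipocytes, was at 48.0, 49.5 and 49.8 CPM in the control libraries and at 23.5, 25.9, 34.3 and 27.1 CPM in the CREX libraries (log2 fold change -0.82 ± 0.11, adjusted p = 0.00215). Adrb3, the β3-adrenergic receptor, averaged 179 ± 29.6 CPM in control and 114 ± 17.9 CPM in CREX (log2 fold change -0.64 ± 0.14, adjusted p = 0.0195). Ppargc1a, the coactivator of mitochondrial biogenesis, and Dio2, the deiodinase that activates thyroid hormone, had larger differences but more spread, and neither passed. Ppargc1a was at 81.5, 31.5 and 101 CPM in the control libraries and at 29.5, 21.1, 17.5 and 12.4 CPM in the CREX libraries (adjusted p = 0.0587), without overlap. Dio2 was at 71.5, 191 and 184 CPM in the control libraries and at 33.0, 70.5, 11.6 and 40.8 CPM in the CREX libraries (adjusted p = 0.120), and the control library at 71.5 CPM was just above the CREX library at 70.5 CPM. Cidea, a lipid droplet protein of brown fat (log2 fold change -0.20 ± 0.07), and Elovl3, an elongase (log2 fold change 1.16 ± 0.43), did not pass. Leaving out 1 library ended the call of Ucp1 (control library 2, adjusted p = 0.0517) and Adrb3 (control library 3, or CREX library 1 or 2, adjusted p from 0.0551 to 0.0588 or log2 fold change -0.58, under the minimum). With the muscle covariate 2 of the 4 calls remained, and those of Ucp1 and Adrb3 ended (adjusted p = 0.166 for Ucp1 and 0.380 for Adrb3). Their log2 fold changes were then -1.10 and -0.36.

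Fatty acid synthesis showed the opposite direction. Of 25 genes tested 13 were DEGs, all upregulated, and the median was 0.62. Me1, the malic enzyme that supplies NADPH, was at 389, 450.0 and 539 CPM in the control libraries and at 1463, 1596, 1168 and 1295 CPM in the CREX libraries, 3.02-fold higher (log2 fold change 1.59 ± 0.14, adjusted p = 4.93e-04). Fasn, the fatty acid synthase whose promoter is printed above, was at 10654, 12216 and 13634 CPM in the control libraries and at 20117, 22290.1, 20713 and 19420.1 CPM in the CREX libraries (log2 fold change 0.77 ± 0.08, adjusted p = 7.23e-04). The lowest CREX library was above the highest control library in both. Fads1, a desaturase of polyunsaturated fatty acids, was at 10.4, 9.26 and 8.99 CPM in the control libraries and at 22.8, 19.7, 24.7 and 22.3 CPM in the CREX libraries (log2 fold change 1.23 ± 0.10, adjusted p = 3.61e-04). Fads3 averaged 13.1 ± 1.56 CPM in control and 30.9 ± 4.14 CPM in CREX (log2 fold change 1.24 ± 0.13, adjusted p = 5.28e-04). These 4 calls held without any 1 library and with the muscle covariate. The other 9 DEGs included Acly (1.24), which makes cytosolic acetyl-CoA, Acaca (0.78), the carboxylase at the entry of the pathway, Slc25a1 (1.07), the mitochondrial citrate carrier, and Elovl6 (1.16), with log2 fold changes in parentheses. The regulators Srebf1 (0.28) and Mlxipl (0.26) and the desaturase Scd1 (0.40) did not pass both criteria. With the covariate 14 members were called, 12 of them among the 13, and 11 to 15 were called with 1 library left out.

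Of 23 genes of sterol synthesis and uptake tested, 11 were upregulated and 1 was downregulated. The fold change was negative in 4, and the median was 0.61. Lss, which closes the first sterol ring system, was at 17.7, 19.4 and 19.2 CPM in the control libraries and at 38.5, 36.2, 35.7 and 29.6 CPM in the CREX libraries (log2 fold change 0.90 ± 0.09, adjusted p = 5.81e-04). Fdps, the farnesyl diphosphate synthase, averaged 26.2 ± 3.98 CPM in control and 48.3 ± 5.93 CPM in CREX (log2 fold change 0.89 ± 0.12, adjusted p = 0.00227). Mvd, a decarboxylase of the mevalonate pathway, was at 2.01, 3.26 and 2.52 CPM in the control libraries and at 4.83, 7.49, 4.71 and 6.08 CPM in the CREX libraries (log2 fold change 1.15 ± 0.22, adjusted p = 0.00978). Cyp51, the lanosterol demethylase, averaged 15.8 ± 2.25 CPM and 25.6 ± 1.85 CPM (log2 fold change 0.70 ± 0.11, adjusted p = 0.00340). The downregulated member was Hmgcs1, the cytosolic HMG-CoA synthase at the start of the pathway. It was at 145, 177 and 149 CPM in the control libraries and at 74.8, 106, 60.4 and 89.5 CPM in the CREX libraries, 1.89-fold lower (log2 fold change -0.92 ± 0.18, adjusted p = 0.0181). The regulator Srebf2 did not pass (log2 fold change -0.24 ± 0.08, adjusted p = 0.0803). With 1 library fewer the call was lost for Cyp51 (control library 1, log2 fold change 0.58, under the minimum) and Hmgcs1 (control library 2 or 3, adjusted p from 0.0520 to 0.0682). The number of upregulated members fell to 5 without control library 1, and was 12 in DESeq2. With the muscle covariate 7 members were called higher and none lower, 6 of the 12 calls remained, and those that ended included Mvd and Hmgcs1 (adjusted p = 0.0804 for Mvd and 0.239 for Hmgcs1). The log2 fold changes of Mvd and Hmgcs1 were then 1.43 and -0.76.

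**Figure D3:**
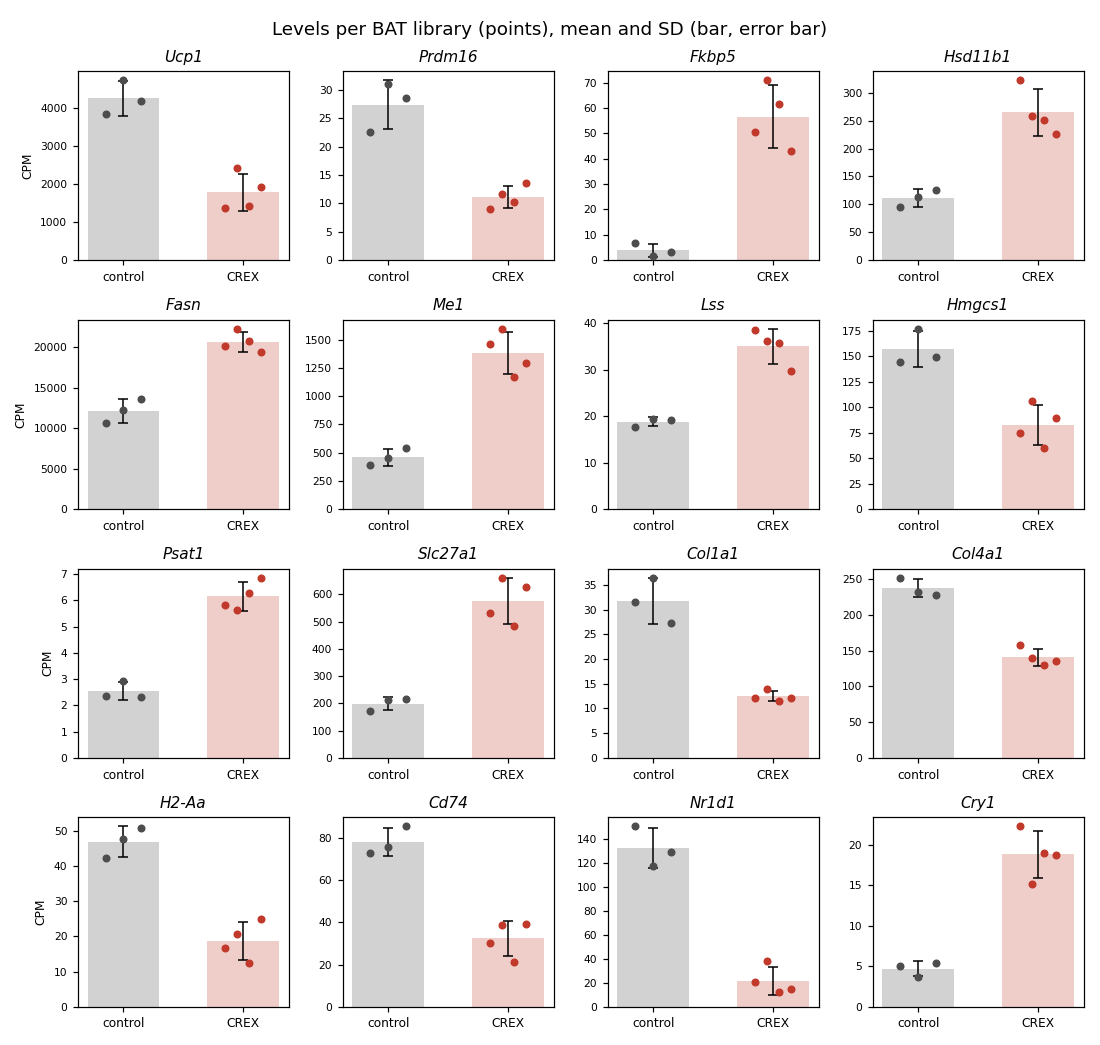
CPM of 16 genes in each of the 3 control and 4 CREX BAT libraries (points), with the group mean (bar) and SD (error bar) on an axis from 0. Fkbp5, Hsd11b1, Fasn, Me1, Lss, Psat1, Slc27a1 and Cry1 are higher and Ucp1, Prdm16, Hmgcs1, Col1a1, Col4a1, H2-Aa, Cd74 and Nr1d1 lower in every CREX library.

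Genes of glucose metabolism rose in part, by smaller folds. In glycolysis and glucose uptake 4 of 22 genes were upregulated and 1 downregulated, with a median of 0.38. Aldoa, an aldolase, was at 2523, 2523 and 2899 CPM in the control libraries and at 4572, 4612, 4782 and 4421 CPM in the CREX libraries (log2 fold change 0.80 ± 0.06, adjusted p = 3.61e-04). Gpi1 (log2 fold change 0.71 ± 0.07, adjusted p = 4.52e-04) and Gapdh (log2 fold change 0.61 ± 0.06, adjusted p = 4.44e-04) were close to the fold minimum. Pfkfb3, which makes the activator of phosphofructokinase, went the other way, at 496, 571 and 654 CPM in the control libraries and at 282, 333, 234 and 244 CPM in the CREX libraries (log2 fold change -1.06 ± 0.14, adjusted p = 0.00215). Aldoc had a log2 fold change of 1.41 (adjusted p = 0.0278). In the pentose phosphate pathway, another source of NADPH, 4 of 10 genes were upregulated (Tkt, H6pd, Shpk and G6pdx, by 0.67, 0.64, 0.61 and 0.62 on the log2 scale). In the TCA cycle list 1 of 22 passed, Pcx, the pyruvate carboxylase (log2 fold change 0.60 ± 0.06, adjusted p = 4.82e-04). In the glycogen list 1 of 16 passed, Ppp1r3b (log2 fold change 0.82 ± 0.20, adjusted p = 0.0326), which targets a phosphatase to glycogen. When 1 library was left out, calls ended for Gapdh (control library 2, log2 fold change 0.57, under the minimum), Aldoc (control library 1, 2 or 3, adjusted p from 0.0626 to 0.104), Shpk (control library 2, or CREX library 4, log2 fold changes 0.56 and 0.54, under the minimum) and G6pdx (control library 1, or CREX library 2, log2 fold changes 0.53 and 0.54, under the minimum). The same held for Pcx (control library 1, or CREX library 2, log2 fold changes 0.56 and 0.57, under the minimum) and Ppp1r3b (control library 1, 2 or 3, or CREX library 3 or 4, adjusted p from 0.0662 to 0.118). In 1 edgeR fit on all BAT groups Tkt also lost its call (adjusted p = 0.0637). Under the muscle covariate the calls of Aldoc, Shpk and Ppp1r3b ended (adjusted p = 0.243 for Aldoc, 0.116 for Shpk and 0.311 for Ppp1r3b), and H6pd came under the fold minimum (log2 fold change 0.48). After subtraction of the muscle share Gapdh did so too (log2 fold change 0.56).

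In fatty acid uptake and oxidation 5 of 38 genes were upregulated and 1 downregulated, with a median of 0.04. Slc27a1, a fatty acid transport protein of the cell surface, was at 171, 212 and 216 CPM in the control libraries and at 532, 662, 484 and 629 CPM in the CREX libraries, 2.90-fold higher (log2 fold change 1.54 ± 0.13, adjusted p = 4.09e-04). Acot2 and Acot3, thioesterases of acyl-CoA, had log2 fold changes of 0.71 and 2.82, and the split of reads between such near-identical neighbours is uncertain. Fabp3, a fatty acid binding protein known from heart, muscle and active brown fat, was at 399, 309 and 250.9 CPM in the control libraries and at 96.2, 108, 121 and 156 CPM in the CREX libraries (log2 fold change -1.41 ± 0.21, adjusted p = 0.00739). All 4 of these calls held without any 1 library. In the lipolysis and lipid droplet list 1 of 17 rose, Cideb (log2 fold change 1.01 ± 0.17, adjusted p = 0.00552), and 2 fell, Plin1 (log2 fold change -0.60 ± 0.15, adjusted p = 0.0331), the perilipin of large droplets, and Hilpda (log2 fold change -0.91 ± 0.26, adjusted p = 0.0423), an inhibitor of adipose triglyceride lipase. Over all genes tested, 3.42% were upregulated and 4.88% downregulated. When 1 library was omitted, the call was lost for Plin1 (control library 1, 2 or 3, or CREX library 1, 3 or 4, adjusted p from 0.0534 to 0.110 or log2 fold change -0.48, under the minimum) and Hilpda (control library 1 or 3, or CREX library 1, 2 or 4, adjusted p from 0.0699 to 0.149). None of these 3 was called with the muscle covariate (adjusted p = 0.158 for Cideb, 0.333 for Plin1 and 0.217 for Hilpda), and with the muscle share subtracted Plin1 was under the fold minimum (log2 fold change -0.58). None of 15 genes of triglyceride synthesis was called by edgeR. At an unadjusted p under 0.05, 7 of those 15 differed, against 4290 of all 13432 genes tested, and DESeq2 called 1.

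Many matrix genes were lower. Among 14 collagens of fibrils and their associates 8 were downregulated and none upregulated, with a median of -0.81. Col1a1 (chr11:94936224-94953042), the main chain of type I collagen, was at 31.4, 36.5 and 27.3 CPM in the control libraries and at 12.2, 14.0, 11.5 and 12.2 CPM in the CREX libraries, 2.53-fold lower (log2 fold change -1.34 ± 0.11, adjusted p = 3.61e-04). Col3a1 averaged 105 ± 18.8 CPM in control and 40.7 ± 2.92 CPM in CREX (log2 fold change -1.36 ± 0.12, adjusted p = 4.04e-04). Col5a3 was at 26.6, 27.7 and 25.8 CPM in the control libraries and at 14.4, 13.8, 12.8 and 16.0 CPM in the CREX libraries (log2 fold change -0.90 ± 0.09, adjusted p = 4.82e-04). Col1a2 had a log2 fold change of -0.79 (adjusted p = 0.00160). No call in this group of 4 was lost when 1 library was left out. Of the 8 calls 6 remained with the muscle covariate. In 1 edgeR fit on all BAT groups, where the spread of the EX libraries entered, the adjusted p became 0.249 for Col1a1, 0.0673 for Col3a1 and 0.414 for Col1a2.

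Of 24 basement membrane genes 12 were downregulated and 1 upregulated (median -0.69). Col4a1 and Col4a2, the main chains of type IV collagen, averaged 238 ± 12.7 CPM and 173 ± 12.4 CPM in control and 141 ± 11.98 CPM and 93.1 ± 5.64 CPM in CREX (adjusted p = 5.43e-04 and 3.61e-04). Col15a1, a collagen beside vessels and adipocytes, was at 21.9, 24.7 and 24.9 CPM in the control libraries and at 7.94, 7.23, 4.54 and 8.29 CPM in the CREX libraries (log2 fold change -1.76 ± 0.18, adjusted p = 7.24e-04). Smoc2 and Smoc1, related calcium-binding matrix proteins, moved apart. Smoc2 fell from 25.2 ± 0.715 CPM to 10.3 ± 2.06 CPM (log2 fold change -1.28 ± 0.14, adjusted p = 8.48e-04), and Smoc1 rose from 53.4 ± 8.33 CPM to 109.5 ± 1.59 CPM (log2 fold change 1.04 ± 0.10, adjusted p = 4.09e-04). Without control library 1 the list held 9 downregulated members, and with the muscle covariate 8. Among 32 genes of collagen processing and matrix remodelling 10 fell and 1 rose (median -0.31), including Mmp2 (-0.75), Mmp14 (-1.03), Adamts9 (-0.84) and Loxl1 (-1.09), metalloproteinases and a crosslinking oxidase. The member that rose was Timp4, an inhibitor of metalloproteinases (log2 fold change 1.02 ± 0.26, adjusted p = 0.0459). In 1 edgeR fit on all BAT groups Mmp2 and Mmp14 were not called (adjusted p = 0.143 and 0.211). Proteoglycans and matricellular proteins did not share a direction, with 3 of 31 up (Podn, Wisp2 and Ctgf), 1 down (Fbn1, fibrillin-1) and a median of -0.19. Omission of 1 library ended the call of Timp4 (control library 2 or 3, or CREX library 1, 2 or 4, adjusted p from 0.0904 to 0.138) and Ctgf (control library 1, 2 or 3, or CREX library 1, 2 or 4, adjusted p from 0.0508 to 0.105). Fitting the muscle covariate ended the calls of Podn, Wisp2, Ctgf, Timp4 and Loxl1 (adjusted p = 0.0741 for Podn, 0.141 for Wisp2, 0.238 for Ctgf, 0.371 for Timp4 and 0.0989 for Loxl1). Of the 11 calls in the remodelling list 4 remained with it. The call of Ctgf also ended after subtraction of the muscle share (adjusted p = 0.0797).

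Targets of the glucocorticoid receptor moved in both directions. Of 28 genes tested, 10 were upregulated and 3 downregulated (median 0.54). Besides Fkbp5, they included Hsd11b1, which regenerates active glucocorticoid inside cells, at 95.5, 112 and 126 CPM in the control libraries and at 323, 258, 252 and 226 CPM in the CREX libraries (log2 fold change 1.26 ± 0.13, adjusted p = 8.92e-04). Mt1, a metallothionein, was at 136, 152 and 175 CPM in the control libraries and at 525, 388, 381 and 359.8 CPM in the CREX libraries (log2 fold change 1.43 ± 0.15, adjusted p = 8.96e-04). Glul, the glutamine synthetase, averaged 1044 ± 125 CPM in control and 2365 ± 418 CPM in CREX (log2 fold change 1.18 ± 0.15, adjusted p = 0.00265). Hif3a was at 0.262, 0.121 and 0.0825 CPM in the control libraries and at 1.52, 1.51, 1.86 and 0.987 CPM in the CREX libraries, with the control values near the floor (adjusted p = 0.00138). Sgk1, Errfi1 and Dusp1, which are also induced by growth factors and stress, fell by 1.09, 0.74 and 1.85 on the log2 scale. The widely used target Tsc22d3 (log2 fold change 1.37 ± 0.40, adjusted p = 0.0751) did not pass, nor did Per1 (-0.19), Klf9 (-0.01) and the receptor gene Nr3c1 (0.06). Dusp1 lost its call without CREX library 2 (adjusted p = 0.0522). With the muscle covariate 2 members were called higher and none lower. Besides Fkbp5, the named calls that ended were those of Glul, Hif3a, Sgk1, Errfi1 and Dusp1 (adjusted p = 0.0536 for Glul, 0.0661 for Hif3a, 0.0614 for Sgk1, 0.0600 for Errfi1 and 0.196 for Dusp1). With the muscle share subtracted 11 rose and 3 fell, and without control library 2, 7 rose.

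In the circadian clock list 5 of 19 genes were upregulated and 2 downregulated (median -0.04). Cry1, a repressor of the clock, was at 4.98, 3.62 and 5.45 CPM in the control libraries and at 22.2, 15.2, 19.0 and 18.8 CPM in the CREX libraries, 4.03-fold higher (log2 fold change 2.01 ± 0.17, adjusted p = 3.61e-04). Nr1d1 (chr11:98767932-98775377), which encodes the repressor REV-ERBα, was at 150.2, 117 and 129 CPM in the control libraries and at 20.996, 38.3, 12.3 and 15.1 CPM in the CREX libraries, 6.09-fold lower (log2 fold change -2.61 ± 0.41, adjusted p = 0.0137). The CREX libraries of Nr1d1 differed widely among themselves, yet all lay below control. Per3 (0.85) and Rora (0.64) rose and Bhlhe41 (-0.93) fell. The core activators Arntl (0.33) and Clock (-0.16) and the output gene Dbp (-0.23) did not pass. Omission of 1 library ended the call of Rora (control library 1, or CREX library 3, log2 fold changes 0.58 and 0.54, under the minimum) and Bhlhe41 (control library 1 or 2, adjusted p from 0.0565 to 0.0603). The covariate left 2 upregulated and no downregulated members. The calls of Nr1d1, Bhlhe41, Per3 and Rora ended with it (adjusted p = 0.102 for Nr1d1, 0.0748 for Bhlhe41, 0.149 for Per3 and 0.149 for Rora). After subtraction of the muscle share Nr1d1 (adjusted p = 0.0807) and Rora (log2 fold change 0.58, under the minimum) were not called.

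Immediate early genes, which nerve and hormone signals induce within minutes, were lower where they differed. Of 25 tested 11 were downregulated and none upregulated (median -1.35). Klf4 was at 21.02, 29.1 and 34.0 CPM in the control libraries and at 7.62, 9.67, 7.22 and 8.69 CPM in the CREX libraries (log2 fold change -1.75 ± 0.17, adjusted p = 5.11e-04). Jund (log2 fold change -1.07 ± 0.13, adjusted p = 0.00126), Klf2 (log2 fold change -1.45 ± 0.20, adjusted p = 0.00407) and Csrnp1 (log2 fold change -1.39 ± 0.23, adjusted p = 0.00471) were also DEGs. Egr1 (log2 fold change -2.64 ± 1.24, adjusted p = 0.217) and Fos (log2 fold change -1.10 ± 0.86, adjusted p = 0.432) did not pass. Spread in control was large for several, as for Nr4a1 above. The number of downregulated members was 6 without CREX library 1, 2 or 4, and with the muscle covariate it was 2, with Klf2 and Csrnp1 among those not called (adjusted p = 0.0714 for Klf2 and 0.145 for Csrnp1). DESeq2 called 15.

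Antigen presentation on MHC class II was lower, with 8 of 9 genes downregulated and a median of -1.32. H2-Aa, one chain of a class II molecule, was at 42.2, 47.8 and 50.8 CPM in the control libraries and at 16.8, 20.8, 12.4 and 24.99 CPM in the CREX libraries (log2 fold change -1.32 ± 0.22, adjusted p = 0.0101). Its partner H2-Ab1 was at 25.8, 28.8 and 36.3 CPM in the control libraries and at 9.34, 13.6, 6.23 and 13.3 CPM in the CREX libraries (log2 fold change -1.51 ± 0.27, adjusted p = 0.0141). Cd74, the invariant chain, averaged 77.8 ± 6.69 CPM in control and 32.4 ± 8.39 CPM in CREX (log2 fold change -1.26 ± 0.20, adjusted p = 0.00908). H2-DMa, which helps to load peptides, had a log2 fold change of -1.11. Ciita, the master regulator of class II genes, was at 1.18, 1.25 and 1.24 CPM in the control libraries and at 0.0798, 0.488, 0.206 and 0.355 CPM in the CREX libraries (log2 fold change -2.10 ± 0.41, adjusted p = 0.0104). The marker sum of B cells, which carry class II, was 1.82 to 2.50 CPM in control and 0.124 to 0.395 CPM in CREX. T cell markers summed to 1.33 to 1.79 CPM in control and 0.289 to 0.754 CPM in CREX, also without overlap, while macrophage markers summed to 87.6 to 94.4 and 58.8 to 106 CPM. All 7 T cell markers and 6 of the 7 B cell markers in the expression table were too low to test. The part of these cells in the results for class II and other immune genes was not tested. With the muscle covariate no member was called by edgeR (adjusted p = 0.155 for H2-Aa, 0.189 for H2-Ab1, 0.141 for Cd74, 0.177 for H2-DMa and 0.122 for Ciita), and after subtraction of the muscle share 7 of the 8 were. Without control library 2, 5 were called, and H2-Ab1 was not (adjusted p = 0.0511). In the class I list 3 of 19 genes were downregulated, all of the Qa region, namely H2-Q4 (-1.03), H2-Q6 (-2.08) and H2-Q7 (-1.41). These are near-identical copies, so the split of reads among them is uncertain. Of 31 interferon-stimulated genes 6 were downregulated (median -0.30), among them Ifi27l2a (log2 fold change -1.01 ± 0.15, adjusted p = 0.00336), Bst2 (-0.72), Cxcl9 (-0.66) and Ifit2 (-0.82). The call of Ifit2 was lost without either control library 1 or 2 or without CREX library 4 (adjusted p from 0.0502 to 0.0934), and with the covariate none of the 31 was called (adjusted p = 0.104 for Ifi27l2a, 0.157 for Bst2, 0.0958 for Cxcl9 and 0.129 for Ifit2).

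Amino acid genes rose in part. In serine, glycine and one-carbon metabolism 5 of 20 genes were upregulated (median 0.23). Psat1 (chr19:15905123-15925059), a transaminase of serine synthesis, was at 2.36, 2.94 and 2.31 CPM in the control libraries and at 5.83, 5.63, 6.28 and 6.87 CPM in the CREX libraries, 2.43-fold higher (log2 fold change 1.28 ± 0.15, adjusted p = 8.92e-04). Phgdh, the enzyme before it, did not pass (log2 fold change -0.62 ± 0.22, adjusted p = 0.0877). Aldh1l1, a folate dehydrogenase, averaged 41.8 ± 4.59 CPM and 89.2 ± 9.12 CPM (log2 fold change 1.10 ± 0.10, adjusted p = 4.04e-04). Gldc and Mthfd1l were under 1 CPM on average, and with 1 library left out the call was lost for Gldc (control library 1 or 2, adjusted p from 0.0696 to 0.0711) and Mthfd1l (control library 1, 2 or 3, or CREX library 1, 2 or 4, adjusted p from 0.0529 to 0.120). In amino acid synthesis and transport 5 of 25 rose and 1 fell (median 0.19). Slc7a10, a transporter of small neutral amino acids, was at 3.85, 5.51 and 4.50 CPM in the control libraries and at 13.9, 17.2, 13.7 and 18.2 CPM in the CREX libraries (log2 fold change 1.77 ± 0.16, adjusted p = 3.83e-04). Prodh, which breaks down proline (log2 fold change 1.05 ± 0.11, adjusted p = 5.52e-04), and Gpt2, the mitochondrial alanine transaminase (log2 fold change 0.96 ± 0.14, adjusted p = 0.00301), rose. Atf4, the transcription factor of the amino acid response, fell (log2 fold change -0.60 ± 0.12, adjusted p = 0.0139). Without 1 library the call was lost for Atf4 (control library 2 or 3, or CREX library 1 or 3, adjusted p from 0.0578 to 0.0590 or log2 fold changes -0.57 and -0.57, under the minimum). The calls of Gldc, Mthfd1l, Gpt2 and Atf4 ended with the muscle covariate (adjusted p = 0.172 for Gldc, 0.241 for Mthfd1l, 0.118 for Gpt2 and 0.379 for Atf4), the last at a log2 fold change of -0.30.

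Among 39 genes of xenobiotic metabolism 11 were upregulated and none downregulated (median 0.35). Cyp4b1, a cytochrome P450 of extrahepatic tissues, was at 25.1, 22.2 and 20.8 CPM in the control libraries and at 82.2, 85.6, 93.6 and 115 CPM in the CREX libraries, 4.16-fold higher (log2 fold change 2.06 ± 0.13, adjusted p = 1.60e-04). Fmo2, a flavin monooxygenase, was at 12.2, 10.1 and 10.8 CPM in the control libraries and at 29.4, 28.2, 42.0 and 32.7 CPM in the CREX libraries (log2 fold change 1.59 ± 0.15, adjusted p = 4.82e-04). Mgst2 and Gstt2, glutathione transferases, had log2 fold changes of 1.45 and 1.22. Cyp2b10, a classical target of the receptor CAR in liver, was at 6.77, 5.84 and 8.66 CPM in the control libraries and at 51.1, 28.7, 77.6 and 81.3 CPM in the CREX libraries (log2 fold change 3.08 ± 0.44, adjusted p = 0.01002). The hepatocyte marker sum was 41.5 CPM in CREX library 4 and 1.20 to 1.48 CPM in the other 3 CREX libraries, against 1.21 to 6.21 CPM in control. The part of hepatocyte RNA in the Cyp2b10 result was not tested. The call of Cyp2b10 ended with the muscle covariate (adjusted p = 0.138 for Cyp2b10), under which 7 of the 11 calls remained, while 11 to 13 members of the list were called with 1 library left out. In the NRF2 and antioxidant list 1 of 24 passed, Mt1, although the median was 0.21.

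Of 36 tested genes for adipokines and secreted regulators, 6 rose and 10 fell (median -0.14). Retn, the adipokine resistin, was at 24.04, 38.2 and 39.7 CPM in the control libraries and at 86.3, 66.2, 69.0 and 88.7 CPM in the CREX libraries (log2 fold change 1.20 ± 0.20, adjusted p = 0.00900). Agt, angiotensinogen, was at 0.699, 0.684 and 0.454 CPM in the control libraries and at 5.79, 1.46, 5.53 and 3.28 CPM in the CREX libraries (log2 fold change 2.71 ± 0.51, adjusted p = 0.0124). Serpina3n rose from 4.63 ± 0.992 CPM to 9.35 ± 1.73 CPM (log2 fold change 1.02 ± 0.19, adjusted p = 0.00800), and Slit3, a secreted guidance protein, rose (log2 fold change 0.64 ± 0.13, adjusted p = 0.0128). Apoe, the lipoprotein component, was at 639, 569 and 662 CPM in the control libraries and at 307, 222, 245 and 244 CPM in the CREX libraries, 2.44-fold lower (log2 fold change -1.29 ± 0.11, adjusted p = 3.61e-04). The chemokines Cxcl14 (log2 fold change -1.03 ± 0.12, adjusted p = 9.83e-04) and Cxcl12 (log2 fold change -0.65 ± 0.08, adjusted p = 0.00147) fell. Bmp5 fell (log2 fold change -1.11 ± 0.31, adjusted p = 0.0394). Lep, the leptin gene, ranged from 3.42 to 13.3 CPM in control and from 2.59 to 9.36 CPM in CREX, with overlap (log2 fold change -0.62 ± 0.63, adjusted p = 0.556). Adipoq, the adiponectin gene, averaged 782 ± 32.9 CPM in control and 717 ± 23.9 CPM in CREX (log2 fold change -0.12 ± 0.05, adjusted p = 0.165). Nptn (log2 fold change 0.12 ± 0.07, adjusted p = 0.307), Inhbb (log2 fold change -0.45 ± 0.34, adjusted p = 0.398) and Sfrp2 (log2 fold change -0.98 ± 0.40, adjusted p = 0.128) did not pass, and Pdgfd passed the p-value but not the fold criterion (log2 fold change -0.56 ± 0.16, adjusted p = 0.0408). Dropping 1 library ended the call of Agt (control library 2 or 3, adjusted p from 0.0573 to 0.0588), Slit3 (control library 3, or CREX library 4, adjusted p = 0.0588 or log2 fold change 0.57, under the minimum) and Bmp5 (control library 2 or 3, or CREX library 1, 2 or 4, adjusted p from 0.0600 to 0.149). With the muscle covariate 1 member was called higher and 8 lower. The calls of Serpina3n, Agt, Slit3 and Bmp5 ended (adjusted p = 0.251 for Serpina3n, 0.233 for Agt, 0.187 for Slit3 and 0.501 for Bmp5), and Pdgfd was called (log2 fold change -0.95, adjusted p = 0.0303).

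Of 26 genes of insulin and growth factor signalling 4 rose and 2 fell (median 0.14). Igfbp4 and Igfbp3, binding proteins of insulin-like growth factors, rose by 1.25 and 1.21 on the log2 scale, and Igfbp5 fell by 0.64. Pik3r1, the regulatory subunit of PI3 kinase (log2 fold change 1.58 ± 0.30, adjusted p = 0.0188), and Socs2, a suppressor of growth hormone signalling (log2 fold change 2.19 ± 0.48, adjusted p = 0.0297), rose, and Grb14, an adaptor that inhibits the insulin receptor, fell (log2 fold change -1.19 ± 0.21, adjusted p = 0.0115). Of 20 angiogenic factors and endothelial receptors 2 fell, Nrp2 (log2 fold change -1.31 ± 0.09, adjusted p = 1.60e-04) and Eng (log2 fold change -0.61 ± 0.12, adjusted p = 0.0134). Nrp2, a coreceptor for VEGF and semaphorins, was at 107, 93.7 and 94.1 CPM in the control libraries and at 43.1, 39.2, 34.8 and 41.0 CPM in the CREX libraries. Dropping 1 library ended the call of Pik3r1 (control library 1 or 2, adjusted p from 0.0608 to 0.0791) and Socs2 (control library 1, 2 or 3, or CREX library 1, adjusted p from 0.0645 to 0.119). The same held for Igfbp5 (control library 1, or CREX library 1, log2 fold changes -0.58 and -0.58, under the minimum) and Eng (control library 1 or 3, or CREX library 3, adjusted p from 0.0530 to 0.0536 or log2 fold change -0.52, under the minimum). The muscle covariate ended the calls of Igfbp3, Pik3r1, Socs2 and Eng (adjusted p = 0.0836 for Igfbp3, 0.196 for Pik3r1, 0.279 for Socs2 and 0.187 for Eng).

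Several lists held no or few DEGs, and the shares of 1 of 22 in the TCA cycle, 1 of 16 in glycogen metabolism and 1 of 24 in antioxidant defence lay near the 3.42% over all genes. Other counts also rested on few genes, where 3.42% rose and 4.88% fell over all genes. These were 1 up and 2 down of 17 in lipolysis and of 21 in proliferation, and 2 of 24 up in the reticulum list. The 2 of 20 down in angiogenic factors and 2 of 26 down in insulin signalling were others. Such counts are not read as results about those lists. edgeR called none of 37 subunits of respiratory complex I, 46 subunits of complexes II to V, 13 genes of the mitochondrial genome, 84 cytosolic ribosomal proteins and 21 heat shock chaperones. At an unadjusted p under 0.05 the counts were 5, 14, 8, 15 and 7, where 4290 of all 13432 genes tested had such a p. DESeq2 called 0, 1, 0, 1 and 1. Medians were 0.01, -0.03, -0.17, 0.00 and -0.10. In the list of endoplasmic reticulum chaperones and stress 2 of 24 rose, Xbp1 (log2 fold change 0.59 ± 0.13, adjusted p = 0.0205) and Herpud1 (log2 fold change 0.82 ± 0.18, adjusted p = 0.0218). Of 21 proliferation genes tested Ccne1 rose (0.88) and Ccnd1 (-1.20) and Bub1b (-0.79) fell. Another 19 members were too low to test. In creatine and calcium cycling 1 of 10 fell, Alpl, the alkaline phosphatase (log2 fold change -1.22 ± 0.17, adjusted p = 0.00297), while 4 members of that list were over 10 times higher in SkM than in BAT. Dropping 1 library ended the call of Xbp1 (control library 1, 2 or 3, or CREX library 1, 3 or 4, adjusted p from 0.0518 to 0.0803 or log2 fold changes 0.49 and 0.57, under the minimum) and Herpud1 (control library 2 or 3, adjusted p from 0.0734 to 0.0805). Among proliferation genes it ended the call of Ccne1 (control library 1, 2 or 3, or CREX library 1 or 3, adjusted p from 0.0568 to 0.115), Ccnd1 (control library 1, 2 or 3, or CREX library 2 or 4, adjusted p from 0.0518 to 0.0901) and Bub1b (control library 1, 2 or 3, or CREX library 1, 2 or 3, adjusted p from 0.0650 to 0.150). In the lists for the reticulum, proliferation and creatine no member was called with the muscle covariate (adjusted p = 0.256 for Xbp1, 0.339 for Herpud1, 0.368 for Ccne1, 0.294 for Ccnd1, 0.168 for Bub1b and 0.103 for Alpl).

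**Figure D4:**
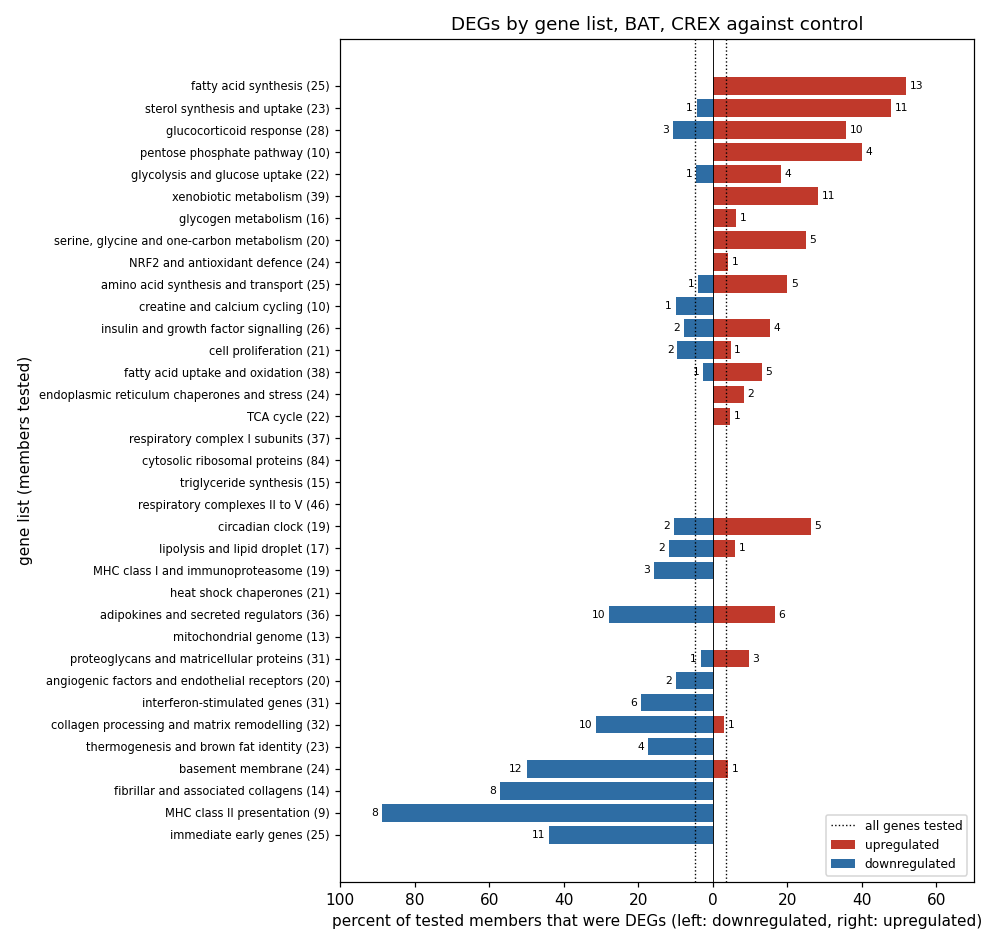
Percent of tested members of each gene list that were upregulated (right, red) or downregulated (left, blue) DEGs in CREX against control, with the number of DEGs at each bar and dotted lines at 3.42% and 4.88%, the shares over all genes tested. Lists are ordered by median log2 fold change, and bars for fatty acid and sterol synthesis reach further right than left, while those for MHC class II, collagens and basement membrane reach further left.

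Markers of other cells gave the following values. Smooth muscle and pericyte markers summed to 387 to 442 CPM in control and 277 to 328 in CREX, endothelial markers to 442 to 483 and 317 to 376, and fibroblast and preadipocyte markers to 254 to 308 and 211 to 227. Schwann cell and nerve markers summed to 76.3 to 105 CPM in control and 42.0 to 56.1 in CREX. None of these 4 sums overlapped between groups, and all were lower in CREX. Their part in the results for matrix and vessel genes was not tested. Single markers that passed were Acta2 (log2 fold change -0.81 ± 0.08, adjusted p = 5.43e-04) of smooth muscle, Cldn5 (log2 fold change -1.60 ± 0.30, adjusted p = 0.0175) of endothelium, Dpt (log2 fold change -0.71 ± 0.15, adjusted p = 0.0142) of fibroblasts, S100b (log2 fold change -1.40 ± 0.17, adjusted p = 0.00238) of Schwann cells and Cd79a of B cells, at 0.699, 0.644 and 0.454 CPM in control and at or under the floor in CREX. Mertk (log2 fold change 0.66 ± 0.15, adjusted p = 0.0198) and Cd163 (log2 fold change 0.81 ± 0.21, adjusted p = 0.0325), macrophage receptors, rose while 9 other macrophage markers had negative values that did not pass. Lrrn4, the only mesothelial marker tested, rose (log2 fold change 1.29 ± 0.21, adjusted p = 0.00407). The summed level of 8 mesothelial markers was 2.35 to 3.94 CPM in control and 6.31 to 9.44 CPM in CREX. Most of that sum was Lrrn4 itself, at 2.19 to 3.54 CPM in control and 6.03 to 9.12 CPM in CREX. The other 7 markers were too low to test, so the sum adds little to the result for Lrrn4. White adipocyte markers summed to 55.5 to 72.7 CPM in control and 90.8 to 115 in CREX, where Retn and Slc7a10 rose and Nnat fell. Of 12 muscle fibre markers none was called, with log2 fold changes from 1.45 to 3.90. At an unadjusted p under 0.05, 2 of the 12 differed, against 4290 of all 13432 genes tested, and DESeq2 called 2. Dropping 1 library ended the call of Cldn5 (control library 2 or 3, or CREX library 1 or 4, adjusted p from 0.0526 to 0.0629) and Dpt (control library 1 or 2, adjusted p from 0.0567 to 0.0629). The same held for Mertk (control library 1 or 2, or CREX library 3, adjusted p from 0.0546 to 0.0801 or log2 fold change 0.55, under the minimum) and Cd163 (control library 2 or 3, or CREX library 1, 2 or 4, adjusted p from 0.0599 to 0.121). The calls of Cldn5, Mertk, Cd163 and Lrrn4 ended with the muscle covariate (adjusted p = 0.209 for Cldn5, 0.269 for Mertk, 0.492 for Cd163 and 0.165 for Lrrn4).

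The combined regimen was then set beside its parts, each against the same 3 control libraries, so these comparisons are not independent. CR gave 1430 DEGs of 13323 tested (10.7%), 516 up (3.87%) and 914 down (6.86%). EX gave none of 13407 by edgeR, with 972 at an unadjusted p under 0.05 and a smallest adjusted p of 0.109. DESeq2 was not run for EX against control. For Ucp1 the log2 fold change was -1.25 in CREX, -1.02 in CR and -0.26 in EX. For Fkbp5 the 3 values were 3.86, 4.03 and 0.39. Fasn had 0.77, 0.75 and 0.21. The EX value was the smallest of the 3 in size for each of these genes. Col1a1 had -1.34, -1.29 and 1.86, the EX value with a standard error of 1.13 and an adjusted p of 0.744. Psat1 had 1.28, 0.12 and 0.18. Bhlhe41 had -0.93, -0.35 and 0.38. List medians in CREX and CR were 0.62 and 0.75 for fatty acid synthesis, -1.32 and -1.53 for MHC class II, and -0.35 and -0.29 for thermogenesis.

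**Figure D5:**
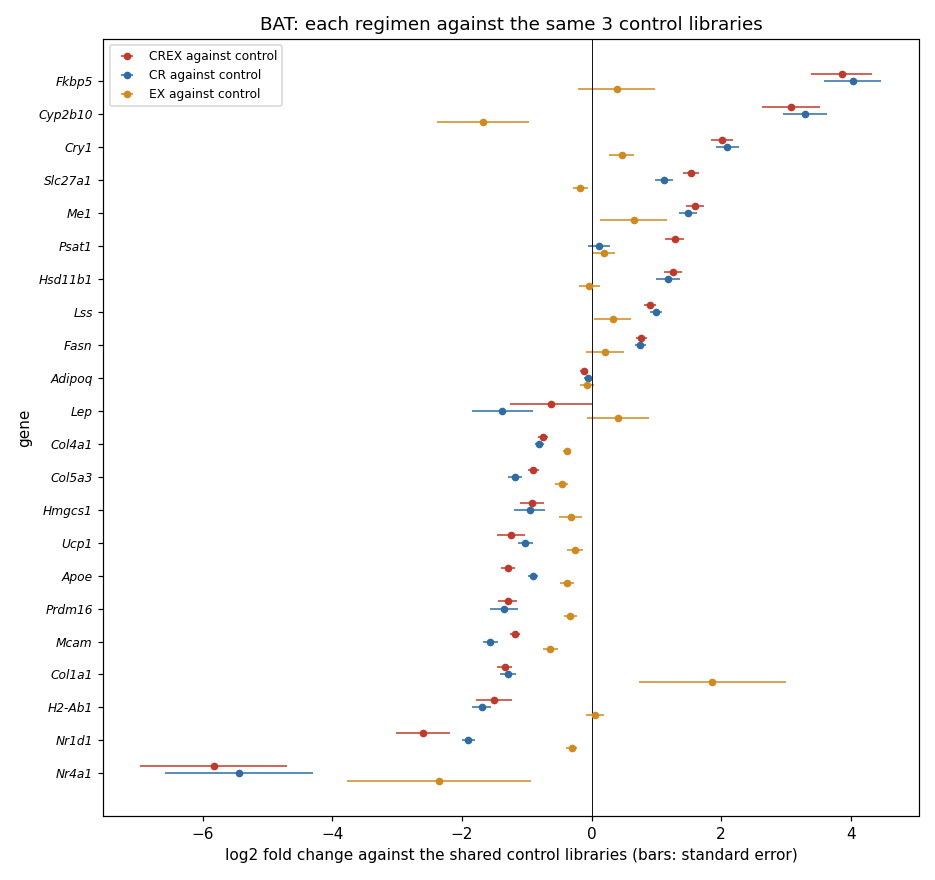
Log2 fold changes (points) with standard errors (bars) of 22 genes in CREX, CR and EX, each against the same 3 control BAT libraries. For Fkbp5 the values are 3.86, 4.03 and 0.39, and for Psat1 they are 1.28, 0.12 and 0.18.

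Tested directly, training on top of the diet gave 1 DEG of 13112 in CREX against CR (0.00763%). This was Psat1, at 6.15 ± 0.550 CPM (SD, n = 4) in CREX and 2.75 ± 0.301 CPM (SD, n = 4) in CR, a log2 fold change of 1.16 ± 0.13 (adjusted p = 0.0343). DESeq2 called 30 genes, and with 1 library left out edgeR called 0 to 5. The count was 0 without any 1 of the CR libraries or without CREX library 1, 3 or 4, and 5 without CREX library 2. Serpina3n (1.02, adjusted p = 0.185) and Hcar2, a ketone body receptor (1.15, adjusted p = 0.185), came next by p and did not pass. For Ucp1 the difference between CREX and CR was -0.23 ± 0.20 on the log2 scale (adjusted p = 0.840), which did not pass.

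The diet on top of training gave 594 DEGs of 13251 in CREX against EX (4.48%), 246 up (1.86%) and 348 down (2.63%). Slc27a1, among the 3 genes with the smallest p, was at 577 ± 83.1 CPM in CREX and 176 ± 22.8 CPM in EX (log2 fold change 1.71 ± 0.12, adjusted p = 2.81e-04). The other two, Tcn2, which carries vitamin B12, and Car5b, a mitochondrial carbonic anhydrase, rose by 1.12 and 1.69. Ucp1 fell (-0.99 ± 0.19, adjusted p = 0.0192) and Fkbp5 rose (3.46 ± 0.40, adjusted p = 0.00505). This comparison uses no control library, and the muscle marker sum was 51.1 to 4799.7 CPM in EX and 1253 to 7455 CPM in CREX, with overlap. The count was 384 without CREX library 1, 363 without CREX library 4, 381 without EX library 2 and 388 without EX library 3.

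Whether diet and training acted other than additively was tested as an interaction over all 4 BAT groups. edgeR called none of 13922 genes, with 800 at an unadjusted p under 0.05, and DESeq2 called 4, Mcam, Col4a1, Notch1 and Ffar2. Mcam, an adhesion molecule of vessels, had log2 fold changes of -1.19 in CREX, -1.56 in CR and -0.63 in EX, and an interaction of 1.01 ± 0.16 (edgeR adjusted p = 0.179). Ffar2, a receptor of short-chain fatty acids, had -0.42, -2.26 and -0.90, and Notch1 had -0.23, -0.31 and -0.55. Notch1 and Ffar2 were not DEGs in CREX against control (adjusted p = 0.0686 and 0.466).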

How the data were processed

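BAT libraries came from total RNA of 1 mouse each (150 bp paired-end reads, per the labels). The authors deposited a table of RSEM expected counts per gene symbol. The submitters' processing notes name STAR 2.7.10a, RSEM 1.2.28, DESeq2 1.3.40 and the build mm10, and the annotation is not given in the sources used here. Whether counting used strand is not stated either, so antisense or overlapping genes cannot be separated. The expected counts, 6.11% of them not whole, were rounded. The table has 27 symbols that were turned into dates and 2 that occur more than once.

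CREX and control libraries were fitted alone in edgeR 4.0.16 (robust quasi-likelihood, TMM, filterByExpr; R 4.3.3, limma 3.58.1) with no covariate. Fold changes are log2 with standard errors from the F statistic, and p-values are two-sided with Benjamini-Hochberg adjustment over all genes tested. A DEG had to pass 0.05 after adjustment and differ by more than 1.5-fold. The other comparisons were run likewise, and the interaction over all 15 BAT libraries. Muscle RNA shares divide the muscle marker sum by its mean in SkM control libraries. Alternatives were DESeq2 1.42.0, other filters and scalings, the replicate block, a muscle covariate, genes high in SkM left out, and each library left out. Subtraction of the muscle share was chosen after seeing the data.

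Named genes were the 8 largest increases and decreases without overlap and at least 1 CPM, in each list at most 4 DEGs per direction, ranked by p, a fixed set (Ucp1, Lep, Psat1 and others), and the 3 top-ranked genes of every other comparison. Other genes are named as members of a list, and some genes that the rule covers are not reported here. The comparison, the lists and this rule were chosen with earlier results of these data known. On simulated data with changes in 200 genes (13432 genes, the CREX against control design), the test recovered 34 of 50 at a log2 fold change of 1, 38 of 50 at -1, 49 of 50 at 2 and 42 of 50 at -2, and called 19 unchanged genes. Promoters and coordinates are from RefSeq on GRCm38.p6, with coordinates for 148 of 150 named genes. No authors' fold changes or p-values were used.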

Additional observations from a re-analysis of the deposited data

Results flagged for a closer look

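In 7 of 164 groups of 4 CREX values, 1 library stood apart from the other 3 by Dixon's test, a share of 4.27% where chance alone gives about 1 in 20. In CREX library 3, Myf6 was at 6.03 CPM against 1.16 to 1.66 CPM in the other CREX libraries, and Bves was at 3.43 CPM against 0.488 to 0.798 CPM. That library also had the highest muscle marker sum, 7455 CPM. Herpud1 was at 141 CPM in CREX library 3. In CREX library 1, Dmrtc1a was at 3.07 CPM, Aldoc at 3.51 CPM and Mt1 at 525 CPM, each the highest of the 4. The summed hepatocyte markers were 41.5 CPM in CREX library 4 against 1.20 to 1.48 CPM in the other CREX libraries. Both Mt1 and Dmrtc1a lay above every control library in each of the 4 CREX libraries.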

How the results depend on the processing

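The 1115 DEGs of CREX against control became 1358 and 1309 in DESeq2 (same libraries, all BAT groups), 1113 with RLE factors, 1135 without a filter, 990 with at least 10 counts in every library and 1149 in 1 edgeR fit on all groups. They became 2086 without a fold minimum, 524 at a fold above 2, 1782 at an unadjusted p, 430 with the muscle covariate, 1155 with genes high in SkM left out, and 679 to 1113 without 1 library. For CREX against CR the count of 1 became 30 in DESeq2, 3 without a filter and 0 to 5 without 1 library. For CREX against EX the 594 became 817 in DESeq2, 572 without a filter and 363 to 582 without 1 library. The interaction count of 0 became 4 in DESeq2, 1 without a filter and stayed 0 without any 1 library. Of 2785 pairs of a named DEG and an alternative, 2445 kept the call, 340 lost it and none changed sign, and 39 of 141 named DEGs kept it in every alternative run. These counts do not measure robustness. The runs without a fold minimum and at an unadjusted p only loosened the criteria of the same fit, so no call could be lost there. A fold above 2 ended every call under 2-fold by definition. Pairs in which the gene was not tested were left out. Of the uncalled named genes, Lep had log2 fold changes from -1.14 to 0.0767 without 1 library, the highest without control library 1, and Ffar2 one of 0.0206 with the muscle covariate. The cause was not tested.

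Samples with the same replicate number did not deviate together (correlations of -0.32, 0.15 and -0.35 for numbers 1 to 3). The labels do not say whether the numbers pair the mice, and so few correlations cannot decide it. With the replicate block 741 DEGs were called in CREX against control, 51 in CREX against CR, 465 in CREX against EX and 0 for the interaction.

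With 3 and 4 mice and 22549148 to 24919377 counts a library, changes near 2-fold were recovered only in part on simulated data, and genes near the floor of 3 counts have imprecise folds.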

Other observations

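The gene with the smallest p in CREX against control was Asph, an aspartate hydroxylase of the endoplasmic reticulum, which lay outside the lists and was chosen after its values were seen. Asph was at 17.8, 19.1 and 18.6 CPM in the control libraries and at 47.3, 45.1, 48.9 and 47.5 CPM in the CREX libraries (log2 fold change 1.36 ± 0.06, adjusted p = 3.42e-05), and its log2 fold change in CR against the same control libraries was 0.88. Gmpr, a guanosine monophosphate reductase, was chosen likewise. Gmpr was at 95.1, 100.3 and 90.2 CPM in the control libraries and at 23.9, 21.1, 27.7 and 28.7 CPM in the CREX libraries, a 3.74-fold lower level (log2 fold change -1.90 ± 0.11, adjusted p = 5.41e-05), with a log2 fold change of -1.71 in CR. In both genes the spread within each group was small beside the difference between groups.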
